A study of Homo sapiens with 6 samples.

Results

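The ATP-binding cassette (ABC) family was examined in MDA-MB-231 cells, an established triple-negative breast cancer line, with raised SRPK2. Members were the protein-coding genes whose symbol is ABC, a letter from A to G and a number, with at least 60 reads over the 6 libraries. The rule found 29 genes of 29710 in the table, out of 43 protein-coding genes with such a symbol. Cells that overexpressed FLAG-tagged SRPK2, a kinase of serine- and arginine-rich splicing factors (OE), were set against cells with the empty vector (NC), each in 3 libraries titled as biological replicates. All libraries came from the same line, and the labels do not say how the construct was delivered or whether a clone was picked. All 29 members passed the filter on low counts and were tested.

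ABC proteins share a nucleotide-binding domain that hydrolyses ATP. Most couple it to membrane-spanning segments and move lipids, drugs, metal-linked cofactors or peptides across a membrane, while subfamilies E and F lack those segments and act on ribosomes and translation. In breast cancer cells the family is best known for the drug efflux pumps of subfamilies B, C and G.

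SRPK2 itself stood at 30.41, 35.25 and 43.48 FPKM (reads scaled to gene length and library size, as deposited) in the OE libraries, against 5.30, 5.09 and 5.90 FPKM in the NC libraries (log2 fold change 2.71, SE 0.10; adjusted p = 2.94e-08 by the quasi-likelihood test of edgeR). The libraries held between 31140537 and 36908878 reads assigned to genes, and the members took 0.110% to 0.121% of them in OE and 0.106% to 0.113% in NC. VIM, CD44 and AXL, genes typical of this mesenchymal-like line, were abundant, ESR1 had at most 2 reads in a library, PGR at most 4, and ERBB2 averaged 4.58 FPKM in OE and 4.09 FPKM in NC. The luminal keratins on the same list were abundant: KRT18 averaged 153 FPKM in OE and 155 FPKM in NC, KRT19 101 FPKM in OE and 99.0 FPKM in NC, and KRT8 89.1 FPKM in OE and 84.1 FPKM in NC. Of markers of other cell types, 4 listed leukocyte genes summed to 4.37 to 5.15 FPKM in OE and 4.76 to 5.31 FPKM in NC, mostly from CD14 and CD68, with PTPRC at or below 9 reads, and 4 endothelial genes to 0.86 to 1.08 FPKM in OE and 0.88 to 0.98 FPKM in NC. The 6 fibroblast genes summed to 2.11 to 2.18 FPKM in OE and 1.50 to 1.58 FPKM in NC, led by LUM, with DCN near 0 and THY1 at or below 1 read; their part in the results was not tested, and in bulk RNA fewer cells of a type cannot be told apart from less RNA per cell.

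No member passed the test. Of the 29 genes, 0 had an edgeR adjusted p under 0.05, where 0.454% of the 16515 tested genes did (0.381% higher and 0.0727% lower in OE), and the smallest adjusted p of a member was 0.174, for ABCA5. At an unadjusted p under 0.05 there were 10 members (8 higher and 2 lower in OE), or 34.5%, against 17.2% of all tested genes (9.06% higher and 8.10% lower). DESeq2 and limma-voom also called 0 members, but DESeq2 gave no adjusted p for ABCA10 and ABCG4. With the replicate number as a block, although the labels do not pair the libraries, 9 of the 29 passed in edgeR. In that setting 23.6% of all tested genes did. The median log2 fold change of the members was 0.07 and that of all tested genes 0.00. Positive values were found for 24 of the 29 members and for 51.2% of all tested genes. The 95% intervals of 26 members lay within a 1.5-fold change in either direction; the other 3 were the thinly read ABCA10, ABCG4 and ABCC9.

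**Figure D1:**
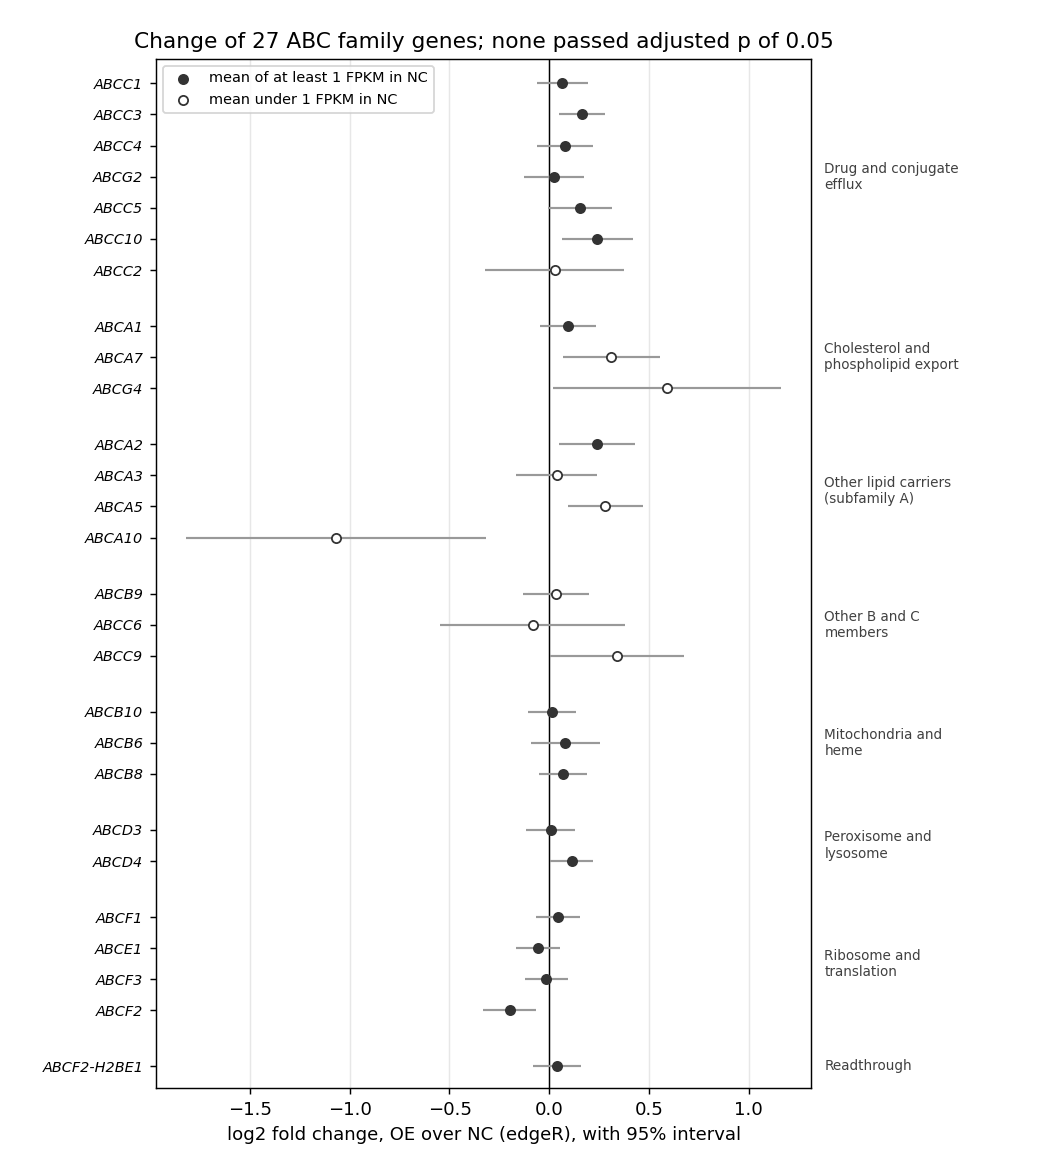
Log2 fold change of 27 ABC genes, OE over NC, on the horizontal axis, with its 95% interval from the edgeR fit; genes run down the page by role. Filled points are genes with a mean of at least 1 FPKM in NC and open points are lower ones. Points lie mostly right of 0, and the widest intervals belong to ABCA10 and ABCG4.

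Levels spanned from under 0.1 FPKM to over 40 FPKM. In NC, 3 members averaged at least 10 FPKM, 17 between 1 and 10 FPKM, and 9 under 1 FPKM. Those 3 were ABCF1 and ABCE1, cytosolic proteins of translation, and ABCF2-H2BE1, a readthrough gene whose count is uncertain, as described below. Below them, the membrane carrier ABCD3 averaged 9.50 FPKM in NC, between the translation proteins ABCF3 at 9.85 FPKM and ABCF2 at 8.39 FPKM. The members lay on 16 chromosomes, with 10 to 50 exons in the principal transcript of GENCODE 29.

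**Figure D2:**
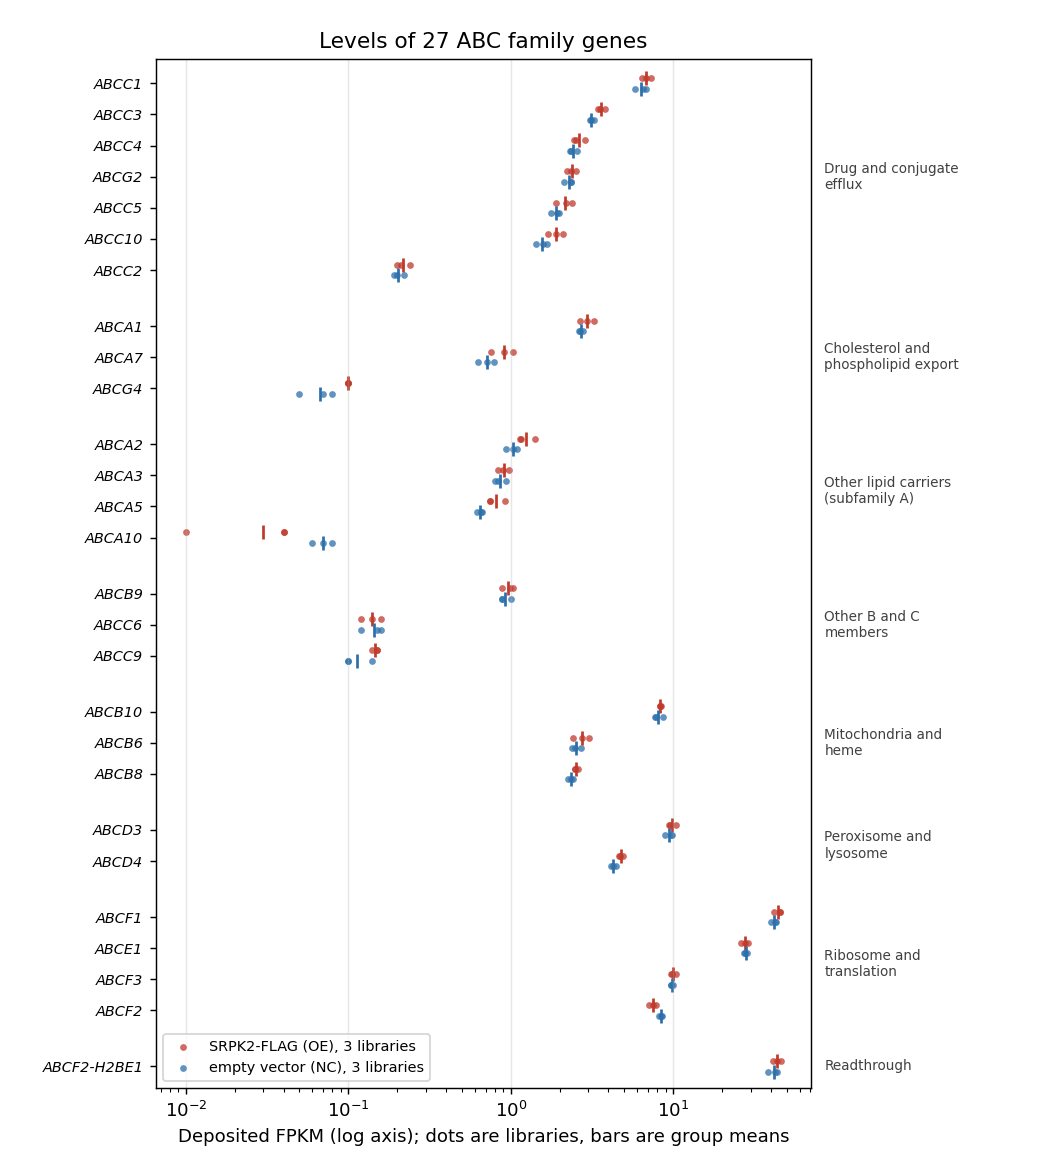
Deposited FPKM of 27 ABC genes on a log axis, with OE libraries drawn above NC libraries; dots are libraries and bars are group means. ABCF1, ABCF2-H2BE1 and ABCE1 lie highest and ABCA10 lowest, and the groups overlap for most genes.

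Drug and conjugate efflux pumps differed little. ABCC1, the multidrug resistance protein that exports glutathione conjugates and several anticancer drugs, was the most abundant, at 6.83, 6.46 and 7.26 FPKM in OE and 6.52, 5.81 and 6.80 FPKM in NC. The groups overlapped, with NC replicate 2 the lowest library (log2 fold change 0.07, 95% interval -0.06 to 0.20, edgeR adjusted p = 0.573). ABCG2, the breast cancer resistance protein, had 2.36, 2.23 and 2.54 FPKM in OE and 2.35, 2.14 and 2.34 FPKM in NC. Its groups overlapped as well (0.02, 95% interval -0.13 to 0.17, edgeR adjusted p = 0.883). ABCB1, which encodes P-glycoprotein, had 1 read in all 6 libraries together and was not tested.

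ABCC10, a pump reported to carry taxanes, had the largest log2 fold change among the efflux genes. It stood at 1.89, 1.70 and 2.11 FPKM in OE and 1.68, 1.44 and 1.58 FPKM in NC. On this scale every OE library lay above every NC library, but in CPM (read counts scaled to library size with TMM) OE replicate 2 was level with NC replicate 1 (log2 fold change 0.24, 95% interval 0.06 to 0.42, edgeR adjusted p = 0.197). ABCC3, which exports conjugated organic anions, had 37.6, 36.6 and 39.0 CPM in OE and 33.3, 33.4 and 34.2 CPM in NC. Its groups did not overlap, and the difference did not pass the adjusted test (0.17, SE 0.05, unadjusted p = 0.00824 and adjusted p = 0.186 in edgeR; exact two-sided permutation p = 0.1, the smallest that 3 against 3 libraries allow). ABCC4, an exporter of cyclic nucleotides and prostaglandins, and ABCC5, which also carries nucleotide analogues, had log2 fold changes of 0.08 and 0.15 with overlapping groups. ABCC2, an apical exporter of organic anions, had 58 to 70 reads a library and a log2 fold change of 0.03. The log2 fold changes of the 7 efflux genes lay between 0.02 and 0.24, and 0 passed. After correction for gene length ABCC2 was at -0.02, ABCG2 at -0.01 and ABCC1 at 0.01, and ABCC2 and ABCG2 also changed sign when single libraries were left out.

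The cholesterol and phospholipid exporters had 3 members. ABCA1, which loads cholesterol onto apolipoprotein A-I, stood at 2.95, 2.66 and 3.27 FPKM in OE and 2.67, 2.63 and 2.79 FPKM in NC. OE replicate 2 lay among the NC libraries (0.10, 95% interval -0.04 to 0.24, edgeR adjusted p = 0.447). ABCA7, a phospholipid exporter, had 0.91, 0.76 and 1.04 FPKM in OE and 0.63, 0.79 and 0.71 FPKM in NC, again with OE replicate 2 inside the NC range. Its log2 fold change was 0.31 (SE 0.11, edgeR adjusted p = 0.217). ABCG4, a sterol transporter known from the nervous system, was read 22, 25 and 26 times in OE and 16, 19 and 13 times in NC. Those counts do not overlap but are few (0.59, 95% interval 0.02 to 1.17, edgeR adjusted p = 0.275). Its close relative ABCG1, a LXR-controlled cholesterol exporter, had 41 reads in all and fell outside the rule.

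Among the other lipid carriers of subfamily A, ABCA2, a lipid transporter of late endosomes and lysosomes, was the most abundant. It had 1.14, 1.16 and 1.42 FPKM in OE and 1.10, 0.94 and 1.04 FPKM in NC. The groups did not overlap, and OE replicate 3 was the highest library (0.24, SE 0.09, edgeR adjusted p = 0.218). ABCA3, the surfactant phospholipid carrier of the lung, had a log2 fold change of 0.04 with overlapping groups.

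ABCA5 and ABCA10 are tandem neighbours on chromosome 17 whose values lay in opposite directions. ABCA5 had 10.9, 10.9 and 12.9 CPM in OE and 9.73, 9.18 and 9.67 CPM in NC, with no overlap (0.28, SE 0.09, unadjusted p = 0.00637 and adjusted p = 0.174 in edgeR). ABCA10 was read 4, 14 and 14 times in OE and 19, 24 and 24 times in NC, also with no overlap, and OE replicate 1 was far below the other libraries. Its log2 fold change was -1.07 (95% interval -1.82 to -0.32, unadjusted p = 0.00914 and adjusted p = 0.191 in edgeR) and -0.75 without that library (adjusted p = 0.387). The annotated exons of ABCA5 (chr17:69244311-69327244, minus strand, GRCh38, GENCODE 29) and ABCA10 (chr17:69147214-69244846, minus strand) share 318 bases on the same strand, where the start of ABCA10 meets the end of ABCA5, so the counts of both are uncertain there.

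The 250 bases before each RefSeq start (GRCh38.p14) are shown because these neighbours have unlike upstream sequences; capitals mark a GC box (GGGCGG or its reverse CCGCCC) or a TATA box (TATAAA or its reverse TTTATA). The ABCA5 window is chr17:69327134-69327383 and the ABCA10 window chr17:69244849-69245098, both on the minus strand. By the GENCODE 29 positions above, the whole ABCA10 window lies inside the ABCA5 gene, near its end. The ABCA5 window also reaches into the ABCA5 gene, whose annotated start is at 69327244.
ABCA5: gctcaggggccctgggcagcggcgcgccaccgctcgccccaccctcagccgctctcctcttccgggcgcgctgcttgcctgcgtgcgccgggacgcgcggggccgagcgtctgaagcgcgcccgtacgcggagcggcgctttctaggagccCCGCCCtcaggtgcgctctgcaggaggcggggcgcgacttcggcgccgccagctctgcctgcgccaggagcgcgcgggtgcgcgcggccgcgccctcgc
ABCA10: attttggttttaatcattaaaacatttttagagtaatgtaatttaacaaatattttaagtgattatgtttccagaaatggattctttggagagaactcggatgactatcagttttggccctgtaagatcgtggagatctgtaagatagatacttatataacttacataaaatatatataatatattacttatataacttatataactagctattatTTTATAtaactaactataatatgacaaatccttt
The ABCA5 window is 79.2% G and C with 1 GC box and 0 TATA boxes. The ABCA10 window is 23.6% G and C with 0 GC boxes and 1 TATA box. RefSeq windows were matched for 24 of the 29 members, taking the first listed start. A GC box on either strand was present in 17 of those 24 windows (70.8%) and in 42.3% of 27305 genes' windows, and a TATA box in 4 of the 24 (16.7%) and in 11.1% of all. A CCAAT box (CCAAT or its reverse ATTGG) was present in 4 of the 24 (16.7%) and in 33.0% of all, and an E-box (CACGTG) in 3 of the 24 (12.5%) and in 6.49% of all. The 27305 windows were not limited by gene type or by reads, as the members were. The sets are therefore unlike, and the shares do not single out the family. These are matches of letters and not sites of binding.

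The remaining members of subfamilies B and C were ABCB9, a lysosomal peptide transporter, ABCC6, the gene mutated in pseudoxanthoma elasticum, and ABCC9, a regulatory subunit of ATP-sensitive potassium channels. ABCB9 had 0.99, 0.88 and 1.03 FPKM in OE and 0.88, 0.88 and 1.00 FPKM in NC, which overlap (0.03, SE 0.08, edgeR adjusted p = 0.844). ABCC9 was read 88, 104 and 101 times in OE and 70, 88 and 72 times in NC, a log2 fold change of 0.34 (95% interval 0.00 to 0.68, edgeR adjusted p = 0.287). In CPM, NC replicate 2 lay above OE replicate 3, so the groups overlapped. ABCC6 had 33 to 42 reads in OE and in NC alike and a log2 fold change of -0.08. It has near-identical pseudogene copies, so its count is uncertain.

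Transporters of mitochondria and heme had small values. ABCB10, a protein of the inner membrane linked to heme synthesis in red cell precursors, was the most abundant at 8.30, 8.46 and 8.31 FPKM in OE and 7.72, 7.87 and 8.66 FPKM in NC. NC replicate 3 was the highest library (0.01, 95% interval -0.11 to 0.13, edgeR adjusted p = 0.920). ABCB6, a porphyrin transporter, and ABCB8, also of the inner mitochondrial membrane, had log2 fold changes of 0.08 and 0.07. ABCB8 had 2.50, 2.49 and 2.59 FPKM in OE and 2.26, 2.35 and 2.43 FPKM in NC, without overlap (edgeR adjusted p = 0.531), and its log2 fold change was 0.01 after correction for gene length.

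The peroxisomal carrier ABCD3, which imports branched-chain acyl-CoA and bile acid precursors, had 9.38, 9.57 and 10.42 FPKM in OE and 8.89, 9.75 and 9.85 FPKM in NC. These overlapped (0.01, 95% interval -0.11 to 0.13, edgeR adjusted p = 0.962). ABCD4, the lysosomal exporter of cobalamin, had 4.74, 4.62 and 4.92 FPKM in OE and 4.16, 4.27 and 4.45 FPKM in NC. Its groups did not overlap (0.11, SE 0.05, edgeR adjusted p = 0.277), and its log2 fold change was 0.06 after correction for gene length.

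The soluble proteins of translation included the most abundant member, ABCF1. ABCF1, which binds the initiation factor eIF2, had 45.21, 42.06 and 45.40 FPKM in OE and 42.83, 40.06 and 42.41 FPKM in NC. OE replicate 2 lay below 2 NC libraries (0.05, 95% interval -0.06 to 0.16, edgeR adjusted p = 0.657). ABCE1, which splits ribosomes after termination and was first known as an inhibitor of RNase L, had 179, 192 and 192 CPM in OE and 193, 197 and 195 CPM in NC. No OE library reached the NC range in CPM, but in FPKM OE replicate 3 was the highest of all at 28.89 (log2 fold change -0.06, 95% interval -0.16 to 0.05, edgeR adjusted p = 0.578). ABCF3, a cytosolic relative of ABCF1, had 9.85, 9.69 and 10.47 FPKM in OE and 10.04, 9.74 and 9.77 FPKM in NC, with a log2 fold change of -0.01, which was 0.02 with library size as the only scaling.

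ABCF2 had the lowest log2 fold change among members above 1 FPKM. It stood at 7.82, 7.56 and 7.12 FPKM in OE and 8.46, 8.55 and 8.15 FPKM in NC. Every OE library lay below every NC library (-0.20, SE 0.06, unadjusted p = 0.00647 and adjusted p = 0.175 in edgeR; exact two-sided permutation p = 0.1). ABCF2-H2BE1, a readthrough gene that joins ABCF2 to a downstream histone gene, had 43.70, 41.02 and 46.41 FPKM in OE and 42.40, 38.53 and 43.62 FPKM in NC, with overlapping groups (0.04, SE 0.06, edgeR adjusted p = 0.748). ABCF2 (chr7:151212490-151227230, minus strand) and the readthrough gene (chr7:151207837-151227166, minus strand) share 1914 exonic bases in GENCODE 29, and the sources used here do not say how shared reads were assigned, so each value is uncertain.

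The principal transcripts of ABCF2 and the readthrough gene have 13 identical exons and part inside the last exon of ABCF2. The 20 shared bases before that point, ending at position 151214058 of chromosome 7, are in lower case, and the next 20 bases of each transcript are in capitals. They are shown because the transcripts come from different places in the genome after that point, although the capitals of both begin with the same letters.
ABCF2: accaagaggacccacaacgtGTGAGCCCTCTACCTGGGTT
ABCF2-H2BE1: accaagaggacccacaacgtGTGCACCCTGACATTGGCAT
ABCF2 runs on in the genome from 151214057, while the readthrough transcript is spliced on to 151208107. Of the reads counted for either gene, ABCF2 took 29.7%, 30.3% and 26.6% in OE and 32.0%, 34.4% and 30.6% in NC. The OE libraries lay below the NC libraries, and OE replicate 2 and NC replicate 3 nearly met (difference -3.47 percentage points, exact two-sided permutation p = 0.1). The difference was -2.34 points without OE replicate 3. Summed over both genes, the level was 149, 142 and 147 CPM in OE and 153, 145 and 150 CPM in NC, which overlap (exact permutation p = 0.4). The share was computed after the values of both genes were seen, and gene counts do not measure the junction itself.

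**Figure D3:**
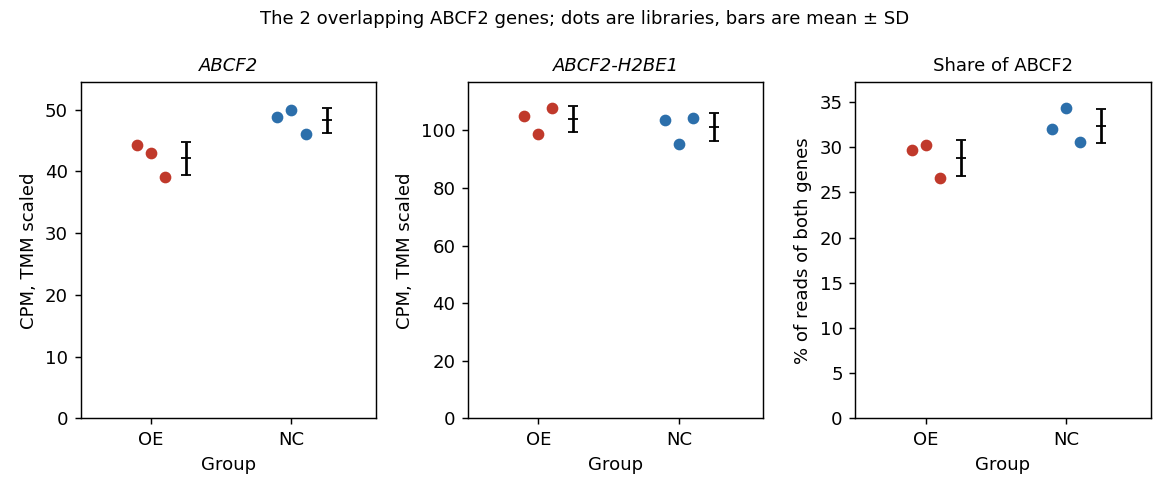
CPM of ABCF2 and of the overlapping readthrough gene, and the share of their joint reads counted for ABCF2, in 3 OE and 3 NC libraries each; bars are mean ± SD. ABCF2 is lower in all OE libraries, and the readthrough gene overlaps between groups.

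Across libraries the members did not separate the groups cleanly. The median deviation of the 29 members from their own mean over the 6 libraries, on the log2 CPM scale, was 0.05, -0.02 and 0.08 in OE replicates 1, 2 and 3 and -0.01, -0.04 and -0.02 in NC replicates 1, 2 and 3. OE replicate 2 fell among the NC libraries. OE replicate 3 was the highest library for 15 of the 29 genes, and 23 genes lay above their mean there, against 22 in OE replicate 1 and 11 in OE replicate 2. The same counts were not made over all tested genes, whose median deviation was also highest in OE replicate 3, at 0.01. Groups did not overlap for 6 members with OE above NC (20.7%, against 11.5% of all tested genes) and for 3 with OE below NC (10.3%, against 8.69%); 20.1% of all tested genes did not overlap in either direction. The 6 were ABCA2, ABCA5, ABCB8, ABCC3, ABCD4 and ABCG4, and the 3 were ABCA10, ABCE1 and ABCF2. Without OE replicate 2, ABCA5, ABCA7 and ABCC10 passed (edgeR adjusted p = 0.0457, 0.0309 and 0.0337), when 8.37% of all tested genes did. With no filter on low counts 3 members passed (ABCA5, ABCA7 and ABCA10), when 3.36% of all 29710 genes did. Those genes had no minimum of 60 reads, as the members had, so the sets are unlike. The members' median log2 fold change was 0.03 without NC replicate 2 and 0.04 without OE replicate 3.

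**Figure D4:**
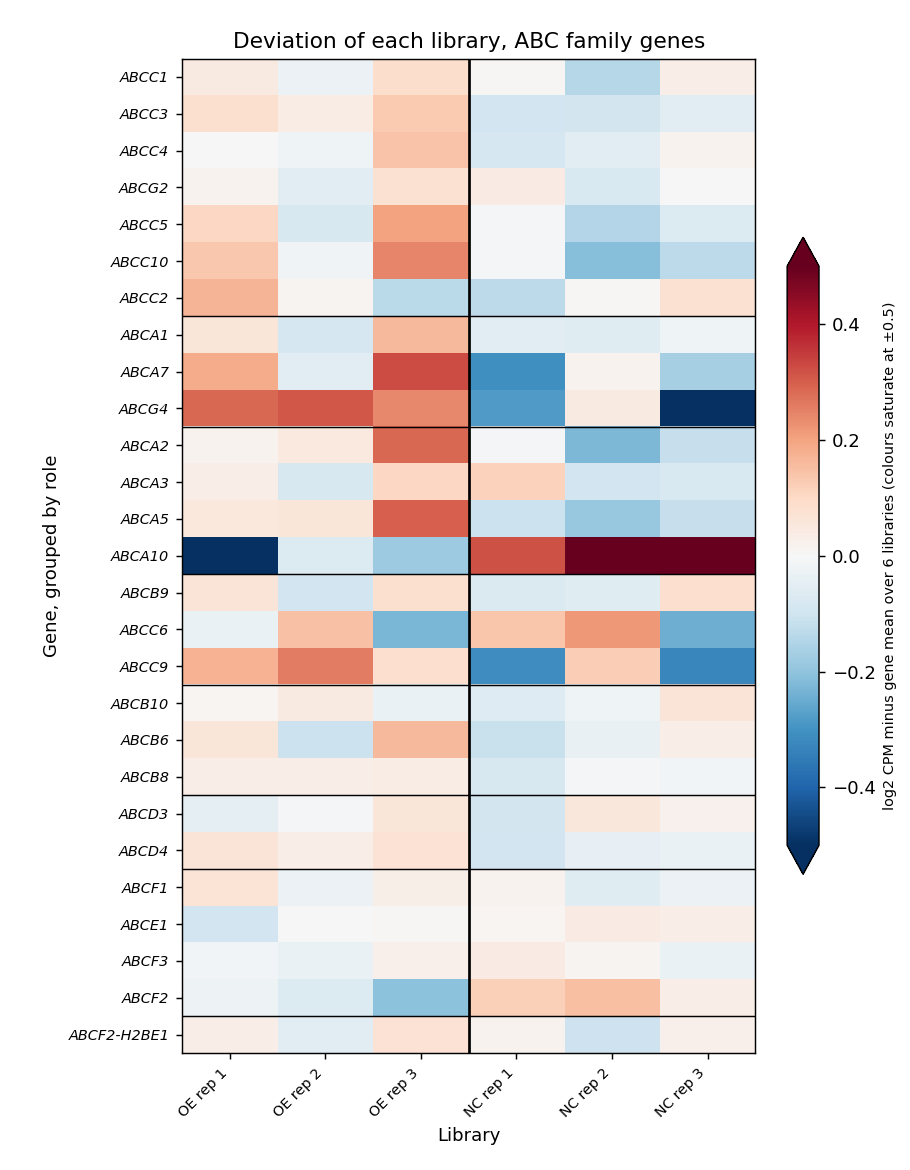
Log2 CPM of 27 ABC genes in each library minus the gene's mean over the 6 libraries; OE libraries are left of the vertical line and NC libraries right of it, and colours saturate at 0.5 in either direction. OE replicate 3 holds many of the highest values, such as those of ABCA2, ABCA5 and ABCC10.

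Gene length moved with these values. Over all tested genes, the median log2 fold change ran from -0.09 in the shortest of 10 equal bins by length to 0.07 in the longest, and 14 of the 29 members lay in the longest 2 bins. Members above the family's median length had a median log2 fold change of 0.13 (14 genes), against 0.06 for the 2914 tested genes in the same length range. The 15 shorter members had 0.03, against 0.00 for 9742 genes in their range. After each library was corrected for gene length, the longer members had 0.07 and genes of their range 0.00, and both shorter sets had -0.01. The median of all members was then 0.03, with 19 of 29 positive and 0 called. The correction moved ABCA1 to 0.03, ABCC3 to 0.11, ABCC4 to 0.03 and ABCC5 to 0.09, each closer to 0, while ABCE1 at -0.09, ABCC6 at -0.13, ABCF3 at -0.04 and ABCF2-H2BE1 at 0.08 lay farther from 0 than without it.

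**Figure D5:**
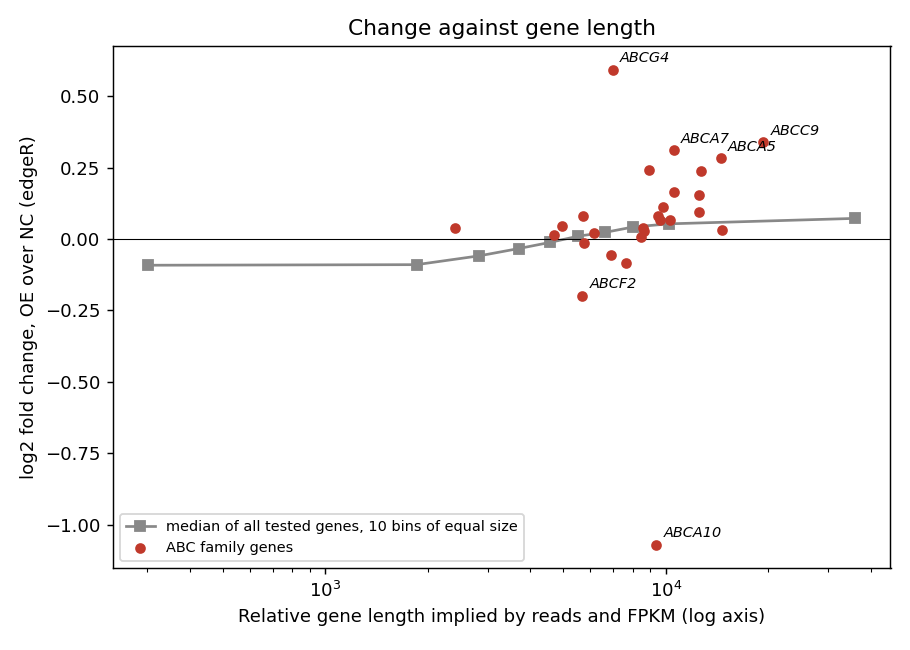
Log2 fold change, OE over NC, against the relative gene length implied by reads and FPKM, on a log axis; red points are 27 ABC genes and grey squares the medians of all tested genes in 10 bins. The grey line climbs from -0.09 to 0.07, and most ABC genes sit right of its middle.

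Genes that work with the family showed 1 call over all the lists below, where 0.454% of the 16515 tested genes were called. SLCO3A1, an organic anion uptake carrier, rose to 3.40 ± 0.22 FPKM in OE, against 2.67 ± 0.09 FPKM in NC (SD, n = 3 each; 0.32, SE 0.06, edgeR adjusted p = 0.0480), 1 of 19 tested uptake carriers, whose median was -0.02. It missed the threshold with RLE size factors, limma-voom and when any library but OE replicate 2 was left out. Of 16 regulators and partners of sterol export, 0 passed, with a median of 0.05. Drug and xenobiotic response genes had 0 of 21 and a median of -0.08, with the membrane-bound glutathione transferase MGST1 at -0.21 (edgeR adjusted p = 0.2004). Peroxisome genes had 0 of 26 and a median of -0.02, and genes of ribosome recycling and eIF2 control 0 of 26 and -0.06. Heme and iron-sulfur cluster genes had 0 of 30, a median of -0.12 and 4 positive values; SLC25A38, the mitochondrial glycine carrier of heme synthesis, had -0.19 (edgeR adjusted p = 0.136). ABC genes with other names and their partners had 0 of 11 and a median of 0.04. Among them, TAP1 and TAP2, which pump peptides into the endoplasmic reticulum for antigen presentation, had 0.08 and -0.03 (edgeR adjusted p = 0.384 and 0.757), and CFTR had at most 3 reads a library. The medians of these lists were not corrected for gene length or set beside genes of like length. Over all tested genes the median was -0.09 in the shortest length bin and 0.07 in the longest. The part of gene length in the list medians was not tested.

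The 14 protein-coding genes with an ABC symbol below the minimum had at most 50 reads over the 6 libraries, and 10 of them under 10 reads. Just inside the minimum were ABCA10 with 99 reads and ABCG4 with 121, and just outside it ABCA13 with 50, ABCA4 with 46 and ABCG1 with 41.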

How the data were processed

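Libraries of MDA-MB-231 RNA were analysed, 3 OE and 3 NC, with groups taken from the sample titles. RNA was isolated with TRIZOL, treated with DNase and sequenced from both ends, per the labels' protocols. The submitters' processing notes name bcl2fastq, FastQC, HISAT2 and GRCh38; the counting tool, strandedness and annotation release were not given in the sources used here. The authors deposited whole-number counts per gene (29710 genes) and FPKM (29256 genes).

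Counts were tested with edgeR 4.0.16 (R 4.3.3; TMM, filterByExpr, glmQLFit, glmQLFTest, two-sided), with Benjamini-Hochberg adjustment over 16515 genes at 0.05. Each SE was computed as the size of the log2 fold change divided by the root of F. The median log2 fold change of all tested genes was 0.004 with TMM and 0.040 with library size alone. It was 0.025 in limma on log2(FPKM + 1). FPKM values therefore lean slightly towards OE beside the edgeR log2 fold changes. Alternatives used DESeq2 1.42.0, limma 3.58.1 and other settings. Gene length was taken from the ratio of reads to FPKM, and is relative (16437 genes). Positions came from GENCODE 29, matched without ID versions. Scripts were tested on simulated counts. Exact permutation tests enumerated all splits of log2(CPM + 0.5) in R, and of the ABCF2 share and summed CPM with SciPy 1.17.1.

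Named with full values were the 6 most abundant members, the most abundant of each role, and the 3 highest and 3 lowest changes above 1 FPKM, except items not reported here; others are given after their values were seen. Members and lists were chosen with earlier results of these data known. Protein sequences were not used here.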

Additional observations from a re-analysis of the deposited data

How the results depend on the processing

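SRPK2 passed the test in every setting run, with log2 fold changes of 2.53 to 2.81. The count of called members was 3 with no filter on low counts (ABCA10, ABCA5 and ABCA7) and 0 to 3 over libraries left out. It was 9 of 29 with the replicate number as a block and 6 of 29 with that block and the gene length correction. In every other setting it was 0, although only 24 members were tested with a mean CPM of at least 5 or with limma on filtered FPKM. DESeq2 gave no adjusted p for ABCA10 and ABCG4. Over all tested genes 75 of 16515 were called (0.454%). The counts were 997 of 29710 with no filter (3.36%), 132 with DESeq2 and 18 with limma on log2(FPKM + 1) without a filter. With the replicate block 3899 of 16515 were called (23.6%), and with the block and length correction 3301 of 16437. Over libraries left out 27 to 1403 were called. The related lists had 1 call, against 11 with no filter, 51 with the block, 53 with block and length correction, 0 with RLE size factors, a mean CPM of at least 5, limma-voom or limma on FPKM, and 0 to 21 over libraries left out. Same-numbered libraries had correlated deviations of 0.08, 0.23 and 0.17, each the best match of its library. Pairs with different numbers had -0.17 to -5.48e-05. The labels do not pair the libraries, so the block is not used as a result. The main test called no member, but members were called with the block, with no filter on low counts and without OE replicate 2.

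The members' median of 0.07 was 0.027 after the gene length correction, 0.026 with the block added, and 0.035 to 0.088 over libraries left out. Values near 0 changed sign. ABCF3 was 0.022 with library size alone, 0.020 in limma on log2(FPKM + 1) with and without a filter, and 0.021 on log2(FPKM + 0.1). ABCD3 was -0.00057 in DESeq2. After the length correction, without and with the block, ABCA3 was -0.012 and -0.0075, ABCB9 was -0.041 and -0.042, ABCC2 was -0.020 and -0.021, ABCD3 was -0.041 and -0.041 and ABCG2 was -0.0061 and -0.0049. Over libraries left out the ranges were -0.011 to 0.11 for ABCA3, -0.016 to 0.051 for ABCB10, -0.0042 to 0.088 for ABCB9, -0.053 to 0.10 for ABCC2, -0.22 to 0.017 for ABCC6, -0.036 to 0.035 for ABCD3, -0.0052 to 0.072 for ABCF2-H2BE1, -0.034 to 0.0023 for ABCF3 and -0.014 to 0.057 for ABCG2. The cause was not tested. Among values of 27 members under alternatives, 30 changed sign, 21 passed where they had not before, and 420 did neither. Of the 21, 9 came with the replicate block and 6 with the block and length correction. Another 3 came with no filter on low counts and 3 without OE replicate 2. The DESeq2 values of ABCA10 and ABCG4, which had no adjusted p, were counted among the 420. Few reads limit ABCA10, ABCG4, ABCC6, ABCC2 and ABCC9.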

Other observations

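Pseudogenes of the family were also counted. ABCA11P, a transcribed pseudogene on chromosome 4, was read 338, 407 and 461 times in OE and 404, 411 and 442 times in NC (log2 fold change -0.07, SE 0.08, edgeR adjusted p = 0.652). ABCC6P2, on chromosome 16 with its parent gene ABCC6, was read 15, 10 and 20 times in OE and 11, 14 and 11 times in NC, with overlapping groups.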
